A study of Macaca fascicularis with 2 samples.

Results

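The endothelial cells of the fetal ovary were taken as 387 of the 20967 cells in the table (1.85%, exact 95% binomial interval 1.67 to 2.04%). A cell was taken when it held at least 3 unique molecular identifiers (UMIs, each standing for 1 captured RNA molecule) summed over PECAM1, CDH5, KDR and PDGFB, with at least 2 of these 4 genes detected and a sum of at least 3 per 10000 of its UMIs. It also had to hold no UMI of TYROBP, DAZL or DDX4. PECAM1 and CDH5 (VE-cadherin) encode adhesion proteins of endothelial contacts, KDR encodes the main receptor for VEGFA, and PDGFB encodes the ligand with which endothelium recruits pericytes. TYROBP marks myeloid cells, and DAZL and DDX4 mark germ cells. The cells were thus chosen by their measured counts of these 7 genes, and every difference between them and the rest of the table is given as a description with no test.

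The study sampled whole ovaries of 2 female Macaca fascicularis fetuses, 1 at embryonic day 84 (E84) and 1 at E116. Both ovaries of a fetus were cut up, digested with enzymes and run as 1 droplet library of 3′ RNA, without a sort or a gate on cell type. Barcodes carry an ending of 1 or 2 with no key to the stages, so the cells were pooled as 1 sample and nothing is reported by stage. The endings serve below only as unlabelled batches, in which library, fetus and stage cannot be told apart.

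Endothelial cells line blood and lymphatic vessels. Blood vessels grow by sprouting under VEGF signals, take arterial or venous identity partly through NOTCH and ephrin signals, and attract mural cells with PDGFB. In the fetal ovary, vessels run from the medulla between the cords of germ and supporting cells.

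Ending 1 gave 100 of the endothelial cells (0.942% of its cells, 0.767 to 1.14%) and ending 2 gave 287 (2.77%, 2.47 to 3.11%). Depth differed between them, with a median of 3576.5 UMIs per endothelial cell in ending 1 and 10617 in ending 2, against 3126 and 4419 in all other cells. The 387 cells had a median of 8154 UMIs, 2853 detected genes and 6.15% mitochondrial UMIs, beside 10.2% in all other cells, and 182 of them had over 3000 genes. Of the 27 barcodes that occur with both endings, 0 belonged to an endothelial cell. Doublets were not called here.

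The steps of the rule left 773 cells with at least 3 UMIs of the 4 genes, 552 of these with 2 or more of the genes and 435 of these at the required density. The exclusion genes then removed 48 cells, of which 33 held DDX4, 21 held DAZL and 3 held TYROBP. In the cells taken, 76 held 2 of the genes, 155 held 3 and 156 held all 4, with a median of 14.1 and a range of 3.01 to 67.4 UMIs per 10000. At the edge of the rule, the 21 cells with exactly 3 UMIs had a median of 74.9 per 10000 UMIs from a list of 30 other endothelial identity genes, and the 42 cells that failed with 2 UMIs had 51.0. The 9 cells taken at 3 to 4 per 10000 had a median of 20.8 on that list, and the 12 that failed at 2 to 3 per 10000 had 2.92. The 48 cells removed by the exclusion genes had a median of 69.4.

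The label was checked against that identity list, which holds none of the rule's genes. Its median per cell was 87.0 UMIs per 10000 in the endothelial cells and 1.60 in all other cells. At least 10 UMIs of the list were found in 377 of the 387 cells and none in 2, while 41.3% of all other cells had none. Levels below are UMIs summed over the cells of a group scaled to a common total (CPM), intervals beside them are exact 95% Poisson intervals, and log2 ratios have 10 CPM added to both sides. All intervals cover counting error only and say nothing of the difference between fetuses. On this scale 27 of the 30 genes were at least 2-fold higher than in all other cells and 0 at least 2-fold lower, with a median log2 ratio of 3.44, beside 4.51% of all 18446 genes higher, 3.95% lower and a median of −0.04. The list's median was 3.48 within ending 1 and 3.43 within ending 2.

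EGFL7, which encodes a secreted protein of growing vessels, was at 1756 CPM (1718 to 1795) against 68.3 in all other cells, with 1182 in ending 1 and 1834 in ending 2. RAMP2, a partner of the adrenomedullin receptor, stood at 1046 CPM (1016 to 1076) against 56.4. The surface glycoprotein gene CD34 reached 501 CPM (481 to 522) against 15. These 3 genes were high in each ending. The next levels of RAMP2 were 96.2 CPM in germ and 93.7 in stromal marker cells, and the next of CD34 was 59.3 in stromal marker cells.

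Junction and surface genes of the same list gave a similar picture. ESAM, a tight-junction adhesion gene, was at 523 CPM in ending 1 and 367 in ending 2, EMCN (endomucin) at 472 and 286, and ROBO4 at 97.3 and 78.8. In all other cells they stood at 3.87, 2.35 and 0.665 CPM. VWF, which encodes von Willebrand factor, was less particular, at 204 CPM (191 to 217) in the endothelial cells and 133 in germ marker cells. Not every textbook marker was found, since CLDN5, the main claudin of endothelial tight junctions, was at only 1.32 CPM (0.483 to 2.87) and the sphingosine receptor gene S1PR1 at 1.32, and SHE at 3.29. ECSCR and CLEC14A are not named in the table.

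**Figure D1:**
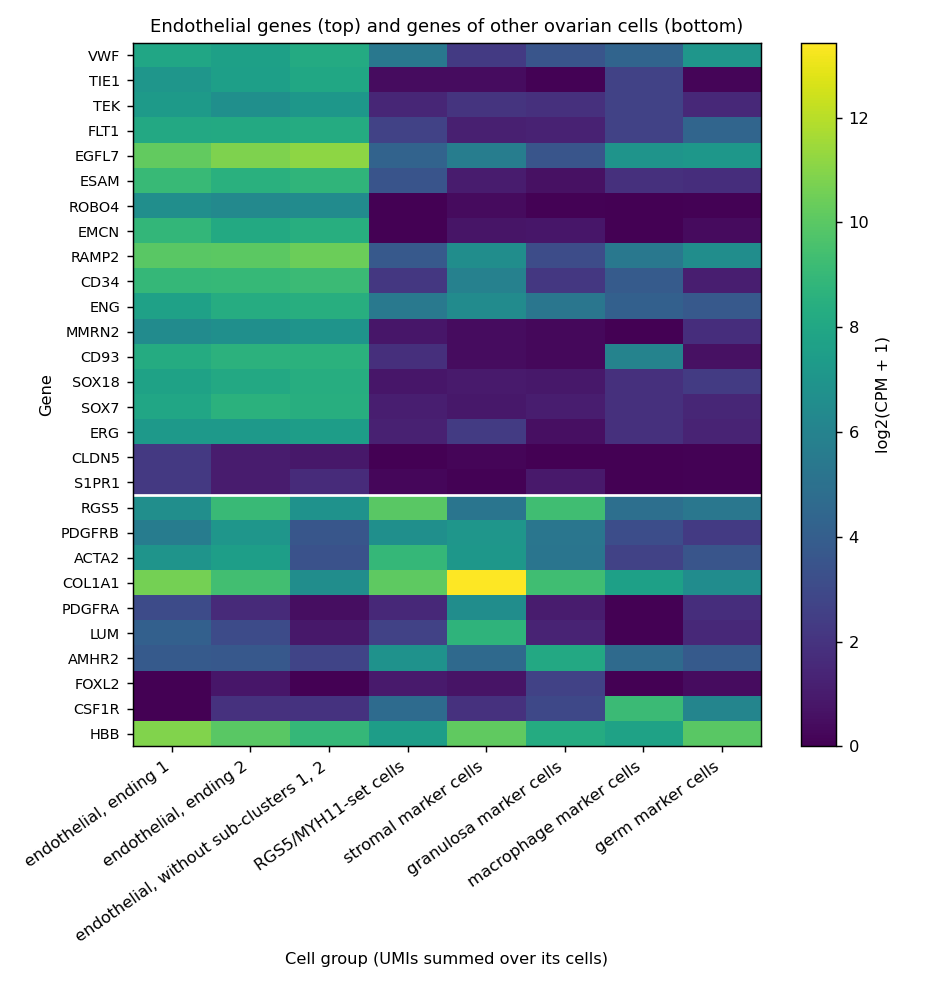
Levels of 18 endothelial identity genes (above the white line) and 10 genes of other ovarian cells (below it) in 8 cell groups, as log2(CPM + 1) of summed UMIs. The identity genes are higher in both endings of the endothelial cells than in the 5 other groups, narrowly for VWF against germ marker cells, with CLDN5 and S1PR1 under 4 CPM throughout, while RGS5, PDGFRB, ACTA2 and COL1A1 drop when sub-clusters 1 and 2 are left out.

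For shares of cells with a UMI, each cell was first cut down at random to 1000 UMIs (thinned), which left out 3 endothelial cells and 1 of the 1607 granulosa marker cells used as background (median depths 8154 and 8650 UMIs). EGFL7 was found in 78.4% of thinned endothelial cells (73.9 to 82.4%) and 0.809% of granulosa marker cells, beside 97.7% and 9.21% unthinned. For RAMP2 the thinned shares were 60.2% and 0.996%, and for ESAM 34.9% and 0%, the latter with an upper bound of 0.229%. The thinned share of VWF was 19.3% against 0.872%. Other groups held more of these genes, with thinned shares in germ marker cells of 12.8% for EGFL7, 9.79% for RAMP2, 4.73% for VWF and 0.548% for ESAM. In stromal marker cells they were 5.94%, 10.7%, 0.673% and 0.158%. The endothelial shares were above those of all 3 groups.

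Transcription factor genes of the endothelial programme were among the clearest. Of 25 listed ETS and other endothelial factors, 20 were at least 2-fold higher and 0 lower, with a median log2 ratio of 2.75, and 20 were so within each ending. Some of the 25, among them SOX7, TAL1 and LYL1, are also on the identity list. The SOXF genes SOX7 and SOX18, which act in vessel specification, were at 363 and 266 CPM against 3.37 and 3.51. The ETS factor genes ERG and FLI1 were at 153 and 113 CPM against 2.54 and 1.62. LMO2, a cofactor in blood and vessel development, was at 324 CPM against 7.69 in all other cells and 129 in macrophage marker cells. The pioneer ETS gene ETV2, known for the earliest endothelial precursors, was at 1.76 CPM (0.758 to 3.46), no higher than the 2.54 in all other cells.

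Of all genes, 256 were at least 4-fold higher than in other cells, or 1.39%. Among the 30 with the largest ratios that had a UMI in at least 5% of the endothelial cells, 2 were rule genes, 20 were on the lists and 1 has no symbol. The 30 ratios ran from 3.76 to 5.18 on the log2 scale. Outside the rule and the lists, CLEC3B was at 399.7 CPM, APOLD1, an early-response gene of endothelium, at 302, RASIP1, which acts in vessel lumen formation, at 294 and TNFSF10 (TRAIL) at 163. In all other cells they stood at 5.78, 3.61, 3.90 and 1.62 CPM. All 30 were at least 2-fold higher within ending 2 and 29 within ending 1, where CD74 reached a log2 ratio of 0.76.

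To see how the cells differ among themselves, they were clustered alone, which gave 8 sub-clusters at resolution 0.6. The genes that lead a sub-cluster also formed it and are a description. Counts at 2-fold below set a sub-cluster against the other endothelial cells. Sub-clusters 1 and 2 were led by genes of other ovarian cells. Sub-cluster 1 (13 cells, 3 of ending 1) was led by MSLN, KRT19 and UPK3B, genes of the ovarian surface epithelium, with KRT19 at 724 CPM, and its median of the identity list was 15.5 per 10000. In it 4 of 7 surface epithelium markers and 3 of 9 granulosa markers were at least 2-fold higher, beside 817 of all 18446 genes. The 3 granulosa markers were AMHR2, FST and KRT19, which is on that list. The granulosa list summed to 1186 CPM and the surface epithelium list to 651. Sub-cluster 2 (91 cells, 16 of ending 1) was led by ACTA2, COL1A1, BGN and PDGFRB, genes of mural and stromal cells, and kept a median of 63.3 on the identity list. Its cells had a median of 19758 UMIs, beside 5677 in the 283 cells of sub-clusters 3 to 8.

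These 104 cells carried most of the mural and stromal transcripts. The pericyte receptor gene PDGFRB was at 122 CPM in all 387 cells and 10.9 in the 283, RGS5 at 496 and 112, ACTA2 (smooth muscle actin) at 178 and 9.61, and COL1A1 at 779 and 96.1. The list of 11 mural markers summed to 1142 CPM in the 387 cells and 189 in the 283, and went from 5 genes at least 2-fold higher than in all other cells to 0 higher and 5 lower (background without the 104 cells 4.78% and 5.07%). Over the 104 cells the 2 endings gave 19 and 85. Some results below are given with and without the 104 cells, and others over the 387 alone. Without the 104 cells, genes at least 2-fold higher went from 12 to 10 for sprouting, 8 to 7 for basement membrane and 9 to 8 for apelin, chemokine and sphingosine. They went from 5 to 6 for capillary, 4 to 5 for junction, 10 to 11 for guidance, 8 to 9 for haemostasis and 12 to 13 for leukocyte adhesion genes. BMP and TGFβ genes at least 2-fold lower went from 1 to 2. Whether such droplets held more than 1 cell was not tested.

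Sub-cluster 7 (36 cells, 7 of ending 1) was arterial-like. In this sub-cluster 14 of 17 arterial genes were at least 2-fold higher than in the other endothelial cells and 0 lower (background 1.84% of all genes), and the list summed to 5072 CPM against 1435. EFNB2, the ephrin ligand of arterial endothelium, was at 829 CPM (726 to 942) and between 99.7 and 446 in the other sub-clusters. The NOTCH ligand gene DLL4 was at 306 CPM (245 to 378) and at most 167 elsewhere. Both values were therefore highest in sub-cluster 7. HEY1, a NOTCH target, was at 285 CPM, the arterial factor gene SOX17 at 473, SEMA3G at 221, the chemokine receptor gene CXCR4 at 494, and its ligand gene CXCL12 at 996. ESM1 and EDN1 (endothelin precursor), the first a gene of sprout tips, were also highest there, at 829 and 1035 CPM. NR2F2, a venous and lymphatic factor gene, was at 71.1 CPM, near the 63.0 of sub-cluster 1 and below the other 6.

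Sub-cluster 6 (29 cells, 3 of ending 1) was lymphatic-like. Of 10 lymphatic genes 8 were at least 2-fold higher and 0 lower (background 2.98%), and the list summed to 2764 CPM against 206 in the other endothelial cells. PROX1, the master factor of lymphatic identity, was at 101 CPM (71.0 to 140.3) from 36 UMIs, and at most 9.81 elsewhere. CCL21, which draws immune cells into lymph vessels, was at 363 CPM (303 to 431) and at most 15.2 elsewhere. FLT4, the receptor gene for VEGFC, was at 518 CPM (446 to 598) and at most 48.6 elsewhere. The hyaluronan receptor genes LYVE1 and STAB2 were at 605 and 386 CPM, RELN at 388, PDPN (podoplanin) at 245 and MMRN1 at 918. NR2F2 and NRP2 were the highest of any sub-cluster at 1022 and 1393 CPM. PDGFB, FLT1 and SOX17 had 0 UMIs in these cells, which allows up to 8.44 CPM each by a limit of 3 counts, and CD34 was at 5.63 CPM. Of the genes on the rule these cells were thus taken through PECAM1, CDH5 and KDR, at 588, 493 and 377 CPM.

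LYVE1 alone did not mark this sub-cluster, since 275 CPM were found in sub-cluster 8 and 192 in sub-cluster 3. Of the 144 cells with LYVE1 among the 283, 20 also held PROX1, or 13.9% of the LYVE1 cells and 62.5% of the 32 PROX1 cells, beside 11.3% of all 283 cells with PROX1 and 50.9% with LYVE1. CCL21 and PROX1 were found together in 17 of the same cells, 65.4% of the 26 with CCL21. Low counts of these genes set how often they can be seen together.

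Sub-cluster 4 (27 cells, 26 of ending 1) was led by PLVAP, the diaphragm protein gene of fenestrated endothelium, at 529.7 CPM (398 to 691) against at most 37.8 elsewhere. ACKR1, a chemokine-binding receptor gene of venules, was at 167 CPM (97.1 to 267), and P-selectin (SELP) at 118 (60.8 to 206). VWF was at 814 CPM, the highest of the sub-clusters. The pattern held venule genes, but only 4 of 15 venous genes were at least 2-fold higher (ACKR1, SELP, POSTN and ADGRG6, background 3.38%), so no vessel type is assigned. Its leading genes also included SYCE3 and ENSMFAG00000033540, which were higher in ending 1 in all other cells too. SYCE3, on the germ cell list, was found in 11.1% of the cells of sub-cluster 4. That list summed to 304 CPM there against 47.6 in the other endothelial cells, with SYCP3 and SYCE3 at least 2-fold higher.

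Sub-cluster 5 (41 cells, 39 of ending 1) was led by ENSMFAG00000033540 and by HBB, a haemoglobin gene, at 6723 CPM against 967 in the other endothelial cells. It also held the most COL4A1 and HSPG2, genes of vascular basement membrane, at 1216 CPM (1036 to 1419) and 128 (74.8 to 206). The germ cell list summed to 144 CPM in sub-cluster 5 against 50.6 in the other endothelial cells. Sub-cluster 8 (122 cells, 0 of ending 1) was led by antigen presentation genes, with HLA-DRA at 952 CPM (897 to 1009), CD74 at 831 (780.3 to 885) and HLA-DPA1 at 571 (529 to 615). CD74 was at 484 CPM in sub-cluster 3 and at most 168 in the rest. Of 15 venous genes 3 were at least 2-fold higher in sub-cluster 8 (ACKR1, SELE and ADGRG6) and 3 lower. Over all 18446 genes 58 were higher there and 325 lower. Sub-clusters 4, 5 and 8 lay almost wholly in 1 ending each. A type of cell cannot be told apart there from library, fetus or stage, and all 3 stay without a vessel name.

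**Figure D2:**
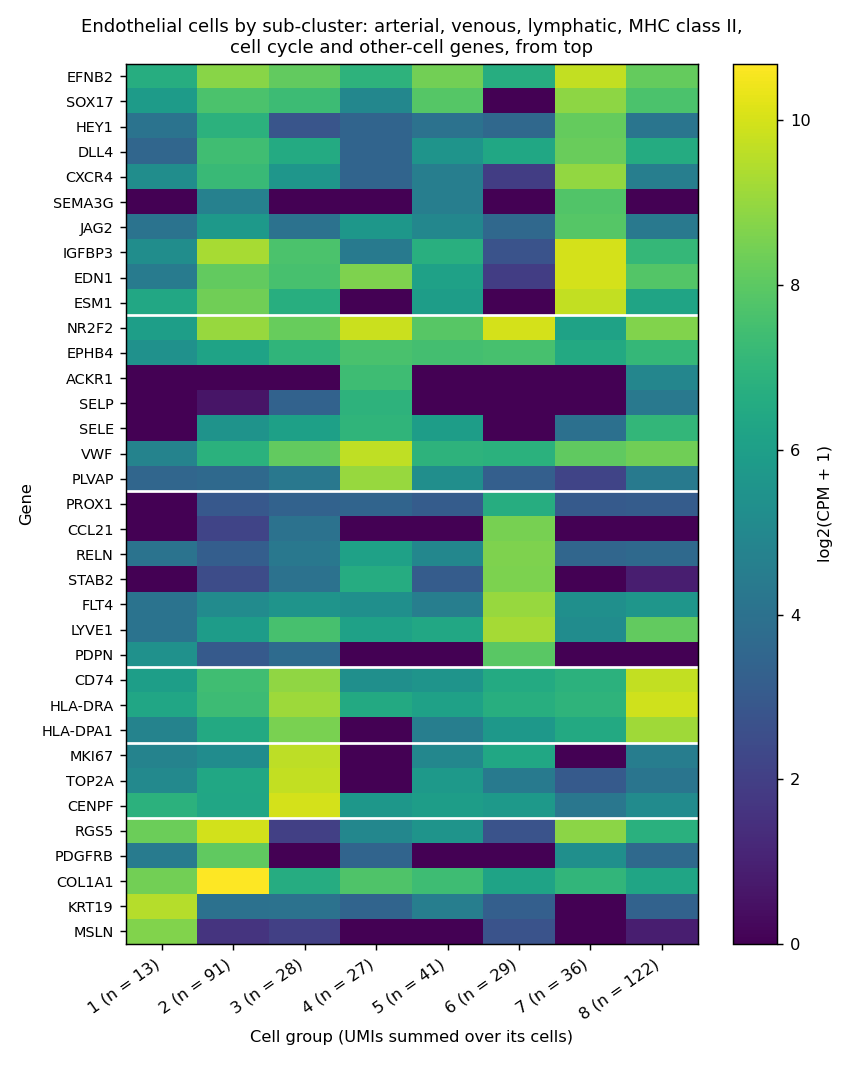
Levels of 35 genes in the 8 sub-clusters of the endothelial cells, as log2(CPM + 1) of summed UMIs, with the number of cells under each column. White lines part the arterial, venous and fenestrated, lymphatic, MHC class II, cell cycle and other-cell genes, whose highest levels lie in sub-clusters 7, mostly 4 and 6, 6, 8, 3 and 1 or 2.

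Sub-cluster 3 (28 cells, 6 of ending 1) had the highest levels of cell cycle genes. Of 16 cell cycle genes 13 were at least 2-fold higher and 0 lower (background 1.72%), with MKI67 at 782 CPM (689 to 884), TOP2A at 846 (749 to 951) and CENPF at 1016. MKI67 was at 81.6 CPM in sub-cluster 6 and at most 36.0 in the rest, with 0 UMIs in sub-clusters 4 and 7. In the 387 cells together, 0 of the 16 genes were at least 2-fold higher than in all other cells and 1, TOP2A, was lower, at 106 against 250.4 CPM. Against the same reference, 0 were higher and 0 lower without sub-clusters 1 and 2. The germ marker cells, with 637 CPM of TOP2A, are part of that reference. All 28 cells held MKI67, but 73 of the 387 did (18.9%), with 24 of them in sub-cluster 2 and 11 in sub-cluster 8, and thinned to 1000 UMIs the share over the 387 was 5.21%. At least 5 UMIs over 14 of these genes were found in 30.5% of endothelial cells, 18% in ending 1, and in 4.43% of cells thinned to 1000 UMIs.

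At resolution 0.4 there were 6 sub-clusters and at 1.0 there were 10. The 29 cells of sub-cluster 6 were together in each and alone there, the 28 of sub-cluster 3 formed groups of 30 and 28, and the 36 of sub-cluster 7 lay in groups of 63 and 37 cells, the first with 27 cells of sub-cluster 2. Sub-clusters 4 and 5 were 1 group of 68 cells at 0.4, 65 of ending 1, and stayed apart at 1.0. Sub-cluster 8 was whole at 0.4 and lay mainly in groups of 53 and 67 cells at 1.0. Sub-cluster 2 parted at 1.0 into 29 cells, 15 of ending 1, and 62 cells, 1 of ending 1.

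Both arterial and venous genes were found over the 387 cells. For the counts of listed genes here and in the pathways that follow, the share of all genes was 4.51% higher and 3.95% lower over the 387 cells, and 4.78% and 5.07% over the 283. Some pathway genes, among them TIE1, TEK, ENG and RAMP2, are also on the identity list. Of 17 arterial genes 9 were at least 2-fold higher than in all other cells and 0 lower, and of 15 venous genes 7 were higher and 1 lower, with medians of 1.21 and 0.85. Without sub-clusters 1 and 2 the medians were 0.65 and 1.18, with 8 arterial genes higher and 0 lower and 9 venous genes higher and 2 lower. EFNB2 was at 363 CPM (346 to 381) and its receptor gene EPHB4, typical of veins, at 109 (99.3 to 119), against 52.8 and 23.9 in all other cells. Of the 193 cells with EFNB2 among the 283, 116 also held EPHB4 (60.1%), near the 56.5% of all 283 cells that held it. NR2F2 was higher in stromal marker cells, at 776 CPM, than in the endothelial cells, at 467. Of the 16 sprouting genes 12 were higher and 0 lower, with ESM1 at 228 CPM against 0.880, ESM1 being 47.7 in ending 1, 252 in ending 2 and 153 without sub-clusters 1 and 2. Of the 12 capillary genes 5 were higher and 1, FABP5, was lower, and of the 10 lymphatic genes 7 were higher.

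The VEGF receptors were endothelial and the ligand VEGFA was not. FLT1, the decoy receptor gene for VEGFA, was at 279 CPM in ending 1 and 282 in ending 2, against 9.09 in all other cells and 20.1 in germ marker cells. The co-receptor genes NRP1 and NRP2 were at 282 and 314 CPM against 40.7 and 67.6. VEGFA was at 37.8 CPM (32.3 to 43.8) in the endothelial cells and 18.4 without sub-clusters 1 and 2, beside 126 in granulosa, 115 in macrophage and 67.6 in stromal marker cells. After thinning, 3.13% of endothelial cells (1.62 to 5.4%) and 11.6% of granulosa marker cells (10.1 to 13.3%) held VEGFA. The VEGFC gene was at 44.1 CPM, reaching 256 in sub-cluster 7, and VEGFD had 0 UMIs. Of the 15 genes of the pathway 8 were at least 2-fold higher and 0 lower, and 9 and 1 without sub-clusters 1 and 2. The list includes KDR, a gene of the rule, so these counts are not independent of how the cells were chosen. Among the higher genes was EPAS1, a hypoxia-response factor gene, at 239 against 12.3 CPM.

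Of the angiopoietin pathway, 4 of 8 genes were at least 2-fold higher and 0 lower (background 4.51% and 3.95%). The receptor genes TIE1 and TEK were at 186 and 109 CPM against 1.83 and 3.66, and PTPRB, which encodes a phosphatase acting on TEK, at 29.6 against 0.457. ANGPT2, the ligand that endothelium itself makes, was at 58.2 CPM (51.4 to 65.6) against 8.36. ANGPT1, the mural ligand, was at 20.2 CPM in the 387 cells but 1.25 in the 283, beside 17.3 in stromal marker cells.

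The NOTCH pathway showed its ligands more than its receptors. DLL4 was at 131 CPM (121 to 142) against 1.64 in all other cells, DLL1 at 46.1 against 2.14 and JAG2 at 46.8 against 9.16. DLL4 was lower in ending 1, at 51.4 CPM, than in ending 2, at 142. The receptor genes NOTCH1 and NOTCH4 were at 7.46 and 4.83 CPM against 2.64 and 0.548. NOTCH3, the mural receptor gene, was at 77.9 CPM in the 387 cells and 15.9 in the 283, and NOTCH2 was lower than in all other cells, at 42.8 against 115 and 176 in granulosa marker cells. MFNG, a glycosyltransferase gene that tunes NOTCH receptors, was at 57.1 CPM against 1.61. In all 6 of 15 genes were at least 2-fold higher and 1 lower, and 4 and 1 without sub-clusters 1 and 2.

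PDGFB, a gene of the rule, was at 117 CPM in the endothelial cells and at most 26.8 in the comparison groups, in macrophage marker cells. Its receptor gene PDGFRB was at 134 CPM in stromal marker cells against 10.9 in the 283 endothelial cells. Of the 6 PDGF genes 2 were at least 2-fold higher and 0 lower over the 387 cells, and over the 283 PDGFB alone was higher and PDGFRA and PDGFRB were lower.

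**Figure D3:**
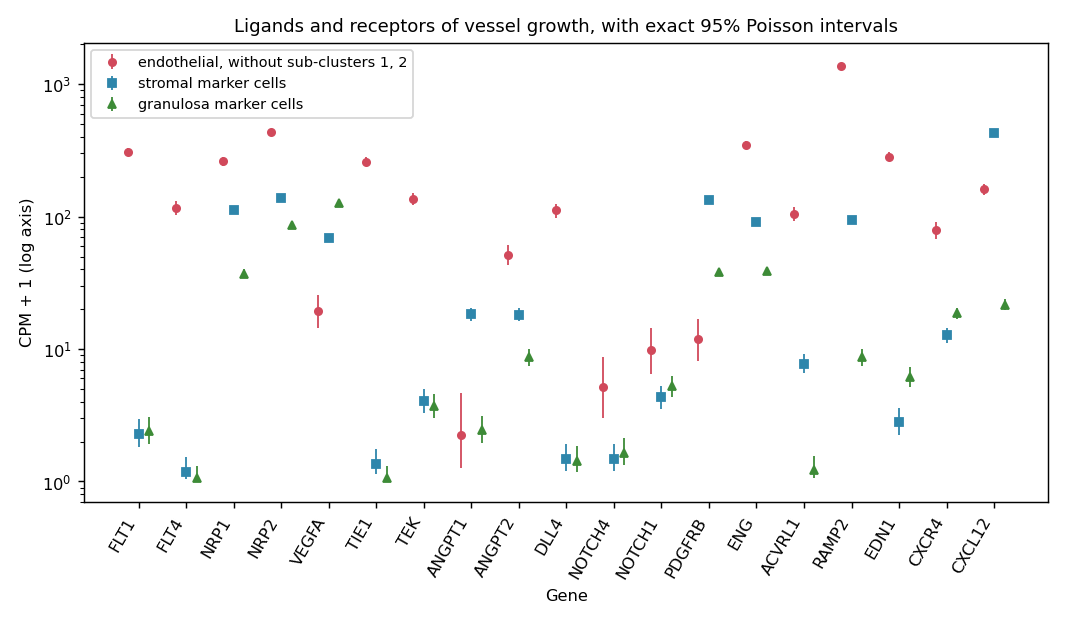
Levels of 19 ligand and receptor genes, as CPM + 1 on a log axis with exact 95% Poisson intervals, in the endothelial cells without sub-clusters 1 and 2 (circles), stromal marker cells (squares) and granulosa marker cells (triangles). FLT1, FLT4, TIE1, TEK, DLL4, ACVRL1 and EDN1 are at least 10 times higher in the circles than in either other group, while VEGFA, ANGPT1, PDGFRB and CXCL12 are not the highest there.

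Receptors of the BMP and TGFβ family were split. ACVRL1, the endothelial type I receptor gene, was at 79.2 CPM (71.3 to 87.9) against 2.50, its co-receptor gene ENG at 301 against 40.2 and the type II gene TGFBR2 at 191 against 18.2. BMPR1B, which granulosa marker cells held at 114 CPM, was at 10.8. The target genes ID1 and ID3 were at 553 and 739.5 CPM against 176 and 215, while ID2 was near the others at 653 and 635. Of 22 genes 9 were at least 2-fold higher and 1 lower.

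EDN1, whose product constricts smooth muscle, was at 271 CPM (256 to 287) against 4.47, and ECE1, which encodes the enzyme that matures it, at 124 against 29.6. CALCRL, the adrenomedullin receptor gene that pairs with RAMP2, was at 27.4 CPM against 1.5. NOS3, endothelial nitric oxide synthase, was at 35.3 CPM against 2.11. CXCL12 was higher in stromal marker cells, at 426 CPM, than in the endothelial cells, at 214, and its receptor gene CXCR4 was at 108, with 31.2 in ending 1 and 119 in ending 2. Of the 14 apelin, chemokine and sphingosine genes 9 were at least 2-fold higher and 0 lower. The apelin receptor gene APLNR was at 2.85 CPM (1.52 to 4.88).

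Of the 19 guidance genes 10 were at least 2-fold higher and 1, SEMA3C, was lower. EFNA1 was at 215 CPM against 17.4 and the netrin receptor gene UNC5B at 143 against 11.6, UNC5B being 501 in the arterial-like and 259 in the lymphatic-like sub-cluster.

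The largest difference between the endings was that of ENSMFAG00000033540, higher in ending 1. On the side of ending 2, the 10 largest ratios included IFI27, BST2, ISG15, IFI44L, IFIT1 and IFIT2, which are interferon-response genes, and HLA-DPA1 and CD74 of antigen presentation, a grouping made after the values were seen. Of all genes 308 were at least 2-fold higher in ending 2 within the endothelial cells (1.67%) and 204 in ending 1 (1.11%). Among the 9915 genes with at least 20 UMIs the counts were 308 and 175, of which 56 and 43 were also at least 2-fold higher the same way in all other cells (1.28% and 0.748% of all genes there). IFI27 was at 325 CPM in ending 1 and 6525 in ending 2 of the endothelial cells, and at 945 and 3359.6 in all other cells. ISG15 was at 22.0 and 576 CPM, and at 94.8 and 255 in all other cells. These interferon-response genes thus differed between endings in the same direction outside the endothelium, by 1.82 and 1.34 on the log2 scale against 4.29 and 4.19 within it.

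CD74, the chaperone gene of MHC class II, was at 18.4 CPM in ending 1 and 389 in ending 2, and HLA-DPA1 at 5.51 and 256. In all other cells CD74 was at 6.79 and 22.6 CPM, a group that includes macrophage marker cells at 1961. The thinned share of endothelial cells with CD74 was 1.01% (0.0256 to 5.50%) in ending 1 and 34.0% (28.6 to 39.9%) in ending 2, beside 7% and 69.7% unthinned, and granulosa marker cells had 0.125% thinned. Of the 18 leukocyte adhesion and immune genes 10 were at least 2-fold higher in ending 2 within the endothelial cells and 0 in ending 1, and 10 and 0 in all other cells. Against all other cells 12 of the 18 were higher and 0 lower, 8 within ending 1 and 10 within ending 2.

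In the other direction PLVAP was at 130.3 CPM in ending 1 and 11.7 in ending 2, and the homeobox gene MEOX1 at 53.2 and 2.49. Their log2 ratios of ending 2 over 1 were −2.69 and −2.34 in the endothelial cells and −0.69 and −0.12 in all other cells. KISS1 and ENSMFAG00000033540 also fell on that side, by ratios of −2.11 and −4.94, and had −2.48 and −5.14 in all other cells. The thinned share with PLVAP was 13.1% (7.18 to 21.4%) in ending 1 and 1.05% (0.218 to 3.05%) in ending 2.

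**Figure D4:**
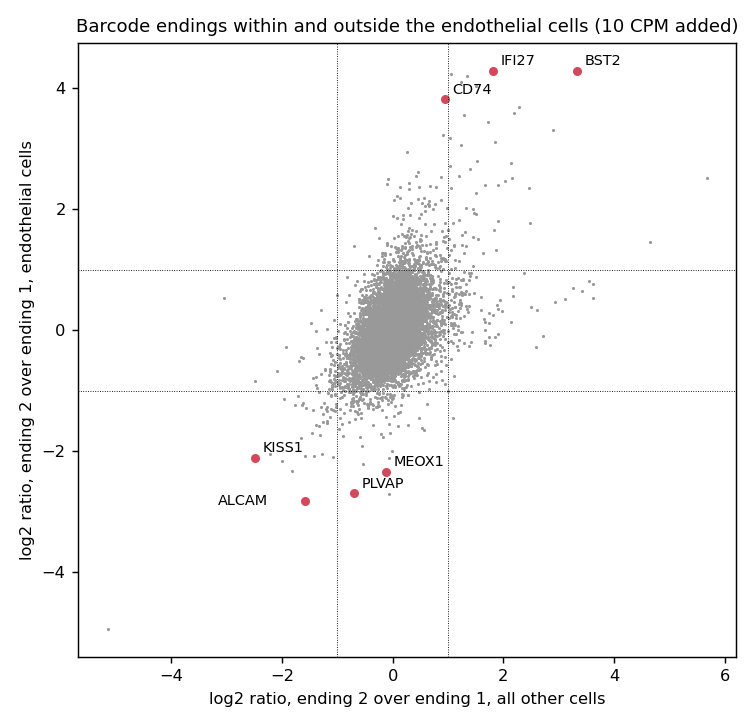
Log2 ratio of ending 2 over ending 1 with 10 CPM added for 9915 genes, in all other cells (horizontal) and in the endothelial cells (vertical), with dotted lines at 2-fold. IFI27, BST2 and CD74 lie over 3 log2 units up within the endothelial cells, PLVAP and MEOX1 over 2 down with a shift under 1 in other cells, and KISS1 and ALCAM down in both.

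Transcripts of other ovarian cells were present in different amounts. All 12 germ cell genes were at least 2-fold lower than in all other cells, summing to 53.3 against 977 CPM, 2 of them being the excluded DAZL and DDX4. The 12 macrophage and lymphocyte markers summed to 25.7 CPM against 92.4. In the 387 cells 5 of them were at 0, among them TYROBP, which the rule excluded. Of 9 granulosa markers 5 were lower and 0 higher, with sums of 271 and 637 CPM, and of 7 surface epithelium markers 2 were lower and 0 higher. Stromal markers summed to 2397 CPM in the 387 cells, 3931 in ending 1 and 2189 in ending 2, and to 381 in the 283. The 6 erythroid markers summed to 1154 CPM against 13058, with 1872 in ending 1 and 1056 in ending 2. Without the 104 cells they summed to 499.8 CPM, with 3169 in ending 1 and 111 in ending 2, so that the gap between the endings was wider there. Among sub-clusters 3 to 8, sub-cluster 5 (39 of 41 cells of ending 1) held 6761 CPM of this list. Sub-cluster 4 was next at 500 CPM. The part of these transcripts in the results above was looked at only by leaving out cells. Either the 104 cells were left out, or cells chosen by their UMIs of the mural, stromal, granulosa or erythroid sets, which left 287. The latter choice kept some cells with such UMIs, since 39.3% of the 387 cells held RGS5, a gene of the mural set. It was made only for the identity median, the count of genes at 4-fold, the arterial and venous sums and the share with cell cycle UMIs.

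The comparison groups were 2549 stromal, 1607 granulosa, 90 macrophage and 1469 germ marker cells, each taken by its own short marker set and with no UMI of PECAM1 or CDH5. Cells meeting more than 1 set, 756 in all, were placed in none. A set of mural genes led by RGS5 took 462 cells, but these held 824 CPM of the granulosa list, beside 1407 in granulosa marker cells, and granulosa marker cells held 627 CPM of RGS5 itself. They are shown in the map of levels by group and are not used as mural cells.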

How the data were processed

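RNA of single cells from whole fetal ovaries was measured in 2 droplet libraries, 1 per stage. The authors deposited 1 table of raw UMI counts, unnormalized, for which the submitters' processing notes name Cell Ranger 3.0.2 and Seurat, with reads aligned to a Macaca fascicularis reference genome. It has 18446 genes, 15233 with a symbol, and 20967 cells with 499 to 120898 UMIs, and includes cells over 3000 genes.

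Cells were taken by the marker rule. The rule, the 28 gene lists and the comparison groups were chosen with earlier results of these data known. With 1 library per stage and stages not assigned to barcodes, no test was made, and cells are not replicates. Counts were summed per group as CPM, with exact 95% Poisson or binomial intervals and a limit of 3 counts at 0. Sub-clusters came from 1500 variable genes, 15 components and 15 neighbours (Leiden, scanpy 1.11.5, igraph 0.11.9). Genes named are those of the lists, the 30 with the largest ratio, the 10 each way that differ most between endings and the 10 leading each sub-cluster. Cells of unlike depth were thinned to 1000 UMIs. Alternatives were limits of 200 to 3000 genes or 10% mitochondrial UMIs, a stricter or looser rule, single endings, mean CPM, thinning, 1 CPM added and no minimum share of cells. Scripts used Python 3.11.15, numpy 2.4.6, scipy 1.17.1 and pandas 2.3.3, and intervals, ratios and thinning were tested on simulated data. The simulated counts came from the Poisson and binomial distributions that the intervals assume. They thus check the calculation and not the spread between cells.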

Additional observations from a re-analysis of the deposited data

How the results depend on the processing

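The number of endothelial cells was 205 within 200 to 3000 genes, 339 at no more than 10% mitochondrial UMIs, 311 with 3 or more marker genes and 435 with no exclusion genes. It was 287 without cells chosen by their UMIs of mural, stromal, granulosa or erythroid sets, which kept some cells with such UMIs. It was 100 and 287 in endings 1 and 2. Without the 2 sub-clusters led by genes of other cell types it was 283, an alternative chosen after seeing the data. The median log2 ratio of the identity list, 3.44, was 3.26 under the mitochondrial limit, 4.89 with 1 CPM added and 3.57 without the 2 sub-clusters. Counted over the 14 arterial genes on no other vessel list, the arterial sum was 1277 CPM. It was 870.0 within the gene limits, 1319 under the mitochondrial limit, 1332 with 3 marker genes, 1205 with no exclusion genes, 969.7 without cells of other sets, 1019 and 1312 in the endings, 1106 as a mean over cells, 1117 thinned and 989 without the 2 sub-clusters. The venous sum, 1763 CPM, was 2009 without cells of other sets, 1931 in ending 1, 1844 as a mean, 1716 thinned and 2015 without the 2 sub-clusters. The share of cells with 5 or more cell cycle UMIs, 30.5%, was 10.2% within the gene limits, 36.7% with 3 marker genes, 22.0% without cells of other sets, 18% in ending 1, 4.43% thinned and 21.6% without the 2 sub-clusters. Genes at least 4-fold higher numbered 256, and 513 with 1 CPM added. The other 27 values stayed within the interval or within 1.5 times of the value reported, and the cause of the changes was not tested. No paired analysis was possible because no test compares groups. Depth limits the levels of single sub-clusters, where 3 counts stand for 1.52 to 29.4 CPM, beside 0.659 CPM in the 387 cells.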

Other observations

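Further gene groups of the endothelial cells were described on the same scale, against all other cells and with the background of 4.51% of genes at least 2-fold higher and 3.95% lower. Some of their genes, among them EGFL7, ESAM, PLVAP and VWF, are also on the identity list, so these counts partly repeat it. Of 16 basement membrane genes 8 were higher and 0 lower. COL4A1 and COL4A2, the chains of the main vascular collagen, were at 205 and 654 CPM against 48.2 and 237, and NID1 (nidogen) at 187 against 36.9. COL4A1 was at 559.7 CPM in ending 1 and 157 in ending 2. Of 15 junction genes 4 were higher and CDH2 (N-cadherin) was lower, at 16.5 CPM against 119 in all other cells and 189 in granulosa marker cells. JAM2, an endothelial junction gene, was at 95.0 CPM against 9.99.

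Of 15 barrier and transport genes 10 were higher and 0 lower. The caveola genes CAVIN2, CAVIN1 and CAV1 were at 529, 479.6 and 141 CPM against 21.4, 120.5 and 26.7. The efflux pump gene ABCB1 was at 41.7 CPM against 8.95, while MFSD2A, a lipid transporter gene of the brain barrier, was at 1.54 (0.618 to 3.17). Of 15 genes of haemostasis and vessel tone 8 were higher and 1, PLAT, was lower, at 18.7 CPM against 72.0. F8, which encodes coagulation factor VIII, was at 27.2 CPM against 6.46, and PROCR, the protein C receptor gene, at 29.6 against 9.66.

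CYP26B1, which encodes an enzyme that breaks down retinoic acid, was at 87.6 CPM (79.2 to 96.6) in the endothelial cells, 80.7 in ending 1 and 88.5 in ending 2. In all other cells it was at 5.47 CPM, and the comparison groups ranged from 0 in macrophage to 7.49 in germ marker cells. Of 17 immediate early and heat shock genes 3 were higher and 0 lower, namely DUSP1, ZFP36 and HSPB1. DUSP1, an early-response phosphatase gene, was at 420.3 CPM in ending 1 and 1722 in ending 2, and FOS was at 3899 against 2721.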
